A study of Mus musculus with 9 samples.

Results

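The mitosis and G2 genes examined here are 41 genes whose products drive a cell from the end of DNA replication through chromosome segregation to the separation of the daughter cells. They were chosen by name, and the level of each was taken from the array's probe sets that the platform table assigns to that gene alone. A total of 910 probe sets met this rule for 40 of the 41 genes. No probe set is assigned to the cyclin B1 gene Ccnb1 alone in that table, so Ccnb1 was not analysed here. All 40 remaining genes had at least 3 probe sets above the cut-off for dim signals, and 883 of their probe sets were used, among 16854 genes tested in all.

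The RNA came from frozen cerebral cortices of E13.5 mouse embryos and was read on Affymetrix Mouse Exon arrays, which carry several probe sets per gene, with no technical replicates. The 3 groups were wild-type controls, embryos labelled Sfpq+/- (loss of 1 copy of Sfpq, by the label) and embryos labelled Sfpq-/- (loss of both copies), with 3 embryos and arrays in each. Sfpq encodes a nuclear RNA-binding protein that takes part in transcription and splicing. The labels give no strain, litter, allele, promoter or Cre driver, and they do not say which cells lost the gene, so p-values measure only the spread between these samples. The labels' extraction note names Sfpq+/- a second time where Sfpq-/- would stand, and the groups were taken from the genotype label of each sample. All levels and changes are on the log2 scale, where the largest change among these genes, -0.46, is a 1.37-fold drop.

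Proliferating cells of the cortical wall at this stage are radial glia, which divide at the ventricular surface, and intermediate progenitors. Entry into mitosis is driven by Cdk1 with its cyclins, after Cdc25 phosphatases remove inhibitory phosphates from it. The Plk1 and Aurora kinases then build the spindle, and the spindle checkpoint holds back the anaphase-promoting complex (APC/C) until every chromosome is attached. Transcripts of most of these genes accumulate in G2 and are scarce in cells that have left the cycle. In RNA from bulk tissue, fewer dividing cells and less of a transcript per dividing cell cannot be told apart.

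Sfpq, the check of the labels, was 10.33, 10.19 and 9.88 on the control arrays 1 to 3, 10.53, 10.15 and 10.09 on the Sfpq+/- arrays and 8.94, 9.27 and 8.74 on the Sfpq-/- arrays (Sfpq-/- minus control -1.15, SE 0.16, limma adjusted p = 0.000787). On the arrays labelled Sfpq+/- its mean was 0.12 above that of controls (95% interval -0.24 to 0.48, limma adjusted p = 0.9), with overlapping arrays. The Sfpq signal thus bears out the Sfpq-/- label but shows no lower level on the arrays labelled Sfpq+/-, and the interval does not reach a change of -1. Sfpq+/- below stands for these arrays as labelled. Markers of embryonic cortex were present in controls: the radial glia factor Pax6 was 9.11 ± 0.11 (SD, n = 3), Emx2 10.17 ± 0.01 (SD, n = 3) and the neuronal factor Tbr1 9.87 ± 0.06 (SD, n = 3). Array medians lay between 5.648 and 5.697, and precision is limited by having 3 arrays a group. Xist, expressed from the inactive X, was high on 3 arrays, at 11.79 on control 1, 11.65 on control 2 and 11.48 on Sfpq-/- 1. The remaining 6 arrays had 4.90 to 5.87, so Xist signal was not balanced between the groups.

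In Sfpq-/- cortex all 40 genes had a mean below that of the controls, by 0.07 to 0.46 on the log2 scale, and 6 of them passed the test across all genes. The 6 that fell were the Aurora kinase genes Aurkb and Aurka, the Polo-like kinase gene Plk1, the phosphatase gene Cdc25b, the cyclin gene Ccnb2 and the mitotic kinesin gene Kif20a. None rose. The median change of the 40 genes was -0.24 (quartiles -0.31 and -0.20), and it was 0.03 over all 16854 genes (quartiles -0.08 and 0.14). A gene was called when the adjusted p of limma, a linear model with moderated variance and Benjamini-Hochberg adjustment over all genes, was under 0.05. By that rule 6.12% of all genes were called lower and 5.98% higher, and 43.2% of all genes had a change below 0. The arrays of the control and Sfpq-/- groups did not overlap for 7 of the 40 genes, all lower, where 10.8% of all genes were lower without overlap. At an unadjusted p under 0.05, 16 of the 40 genes were lower and none higher, where 9.92% and 14.2% of all genes were. In Sfpq+/- cortex none of the 40 genes was called. The changes are small for this design. On simulated data for Sfpq-/- against control with 16854 genes, the test found 6% of changes of 0.25 and 60% of changes of 0.5. Those changes were planted in genes drawn at random, with noise equal in all groups and independent between genes. The median SD within groups was 0.17 for the 40 genes and 0.12 over all genes. The rates are thus for genes at large and were not measured for these 40.

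The 3 Sfpq-/- arrays did not carry this change equally. Averaged over the 40 genes, the difference from the control mean was -0.23 on Sfpq-/- 1, -0.01 on Sfpq-/- 2 and -0.53 on Sfpq-/- 3. On control arrays 1 to 3 it was 0.04, 0.05 and -0.08, and on Sfpq+/- arrays 1 to 3 it was 0.00, -0.02 and 0.03. Sfpq-/- 3 was the lowest of the 9 arrays for all 40 genes, as it was for 22% of all genes. It lay below each control for 40 genes, Sfpq-/- 1 for 30 and Sfpq-/- 2 for 7, while the shares of all genes below each control on these arrays were 32%, 23.8% and 25.9%. On Sfpq-/- 2, 10 of the 40 genes lay above each control: Ttk, Bub1, Cenpe, Cenpf, Ndc80, Kif23, Kif4, Hmmr, Racgap1 and Mki67. Among all genes 45.4% lay above each control on that array, a larger share than among the 40. The 7 genes below each control on that array were Plk1, Aurka, Aurkb, Bub1b, Ccnb2, Cdc25b and Kif20a, that is, the 6 called genes and Bub1b. The test favours genes that are low on all Sfpq-/- arrays, so this overlap is no separate result. The order Sfpq-/- 3 below Sfpq-/- 1 below Sfpq-/- 2 was seen for 39 of the 40 genes and for 35.8% of all genes. Control 3 was the lowest control for 35 of the 40 genes, and for 48.7% of all genes.

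**Figure D1:**
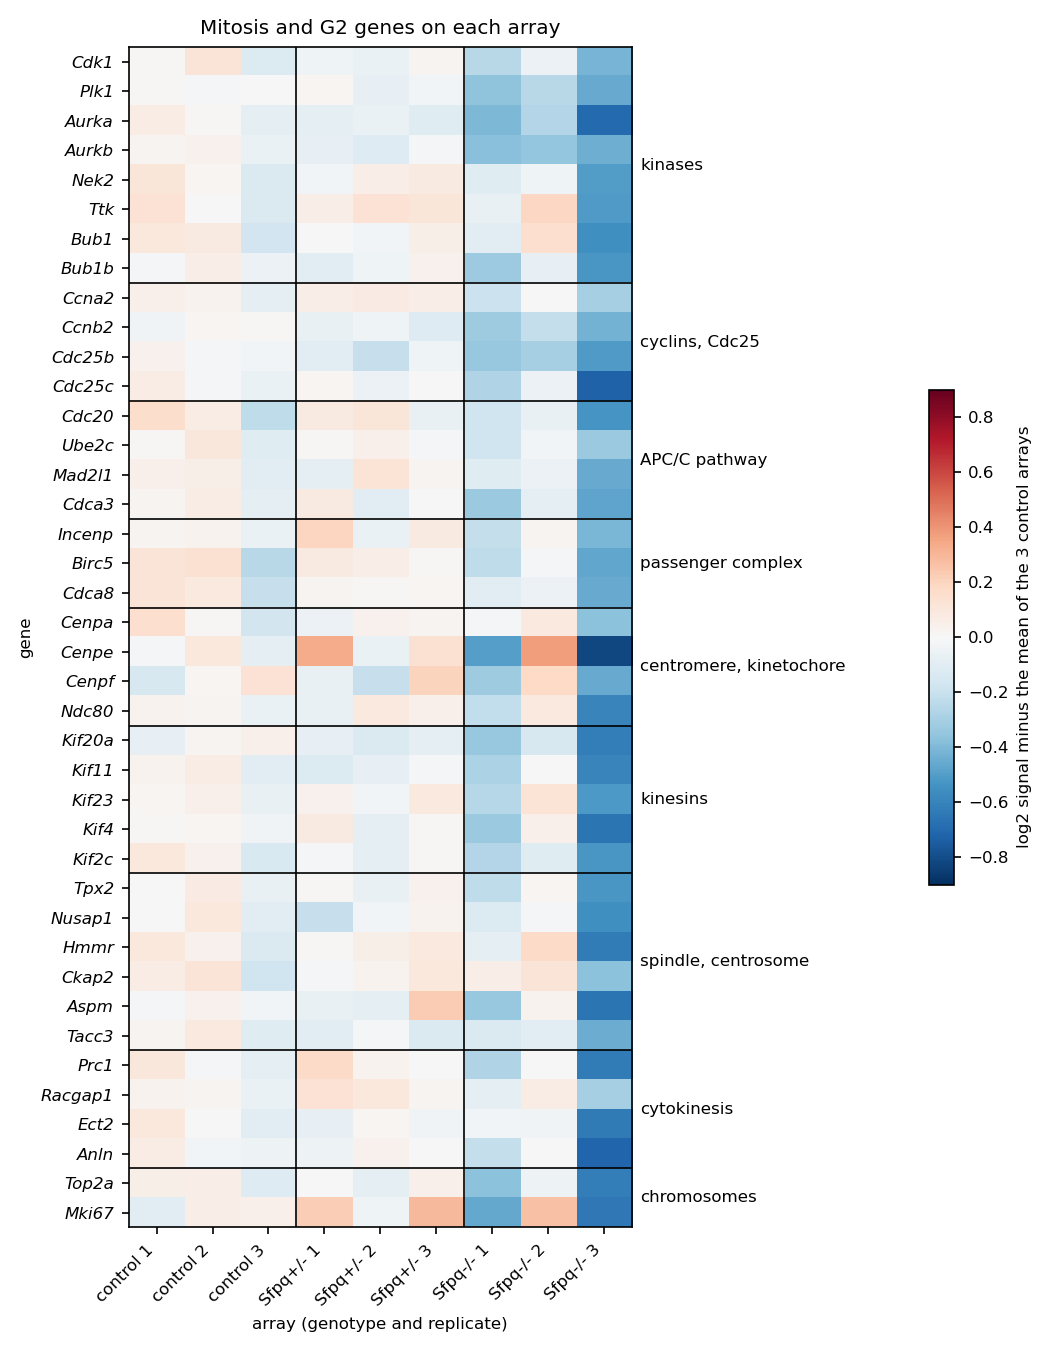
Log2 signal of each of the 40 genes (rows, in role groups) on each of the 9 arrays (columns), as the difference from the mean of the 3 control arrays; blue is lower and red is higher. Sfpq-/- 3 is blue in all 40 rows, Sfpq-/- 1 in 39, and Sfpq-/- 2 lies below the control mean in 24 and above it in 16.

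The counts of called genes depended on single arrays, and the cause was not tested. Without Sfpq-/- 2, 22 of the 40 genes were called lower and the median change was -0.38. Without Sfpq-/- 3, 5 were called and the median change was -0.10, with 35 of 40 below 0. Without control 2, 3 were called. The SD over the Sfpq-/- arrays had a median of 0.25 among the 40 genes, against 0.09 over control and 0.06 over Sfpq+/- arrays. Over all genes these medians were 0.13, 0.10 and 0.09. The SD over Sfpq-/- arrays had a median of 0.11 in the 6 called genes and 0.28 in the 34 others, whose median change was -0.23. The call itself uses the spread within groups, so this difference follows in part from how the 6 were selected. A fit with a term for high or low Xist signal was added once the data had been seen. It called 5 genes, and 39 of 40 changes lay below 0. The share of all genes called is not given for this fit or for those without single arrays. The counts from these fits thus do not separate a change in these genes from a change in calls at large.

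Among the 8 kinase genes 3 fell, and the median of the 8 changes was -0.28. The 6 called genes are split by role here and below, so these counts add no further calls. Of all genes 6.12% were called lower. Aurkb encodes the kinase of the chromosomal passenger complex, which corrects faulty attachments of chromosomes to the spindle. Its signal was 12.07, 12.09 and 11.99 on the control arrays 1 to 3, 11.98, 11.93 and 12.03 on the Sfpq+/- arrays, and 11.67, 11.70 and 11.61 on the Sfpq-/- arrays. All 3 Sfpq-/- arrays lay below all 6 others and close together, which made Aurkb the gene with the smallest p among the 40 (1.31-fold lower, log2 change -0.39, SE 0.07, limma adjusted p = 0.0034). Plk1 encodes a kinase needed for mitotic entry, centrosome maturation and cytokinesis. It was 11.51, 11.49 and 11.50 in controls, 11.52, 11.43 and 11.48 in Sfpq+/- and 11.14, 11.25 and 11.05 in Sfpq-/- cortex, again with no overlap between the Sfpq-/- arrays and the others (-0.35, SE 0.07, limma adjusted p = 0.00892). Aurka, which encodes the Aurora kinase of the centrosome, was 10.88, 10.82 and 10.72 in controls, 10.72, 10.75 and 10.69 in Sfpq+/- and 10.40, 10.54 and 10.11 in Sfpq-/- cortex. It had the largest change of the 40 (1.37-fold lower, log2 change -0.46, SE 0.10, limma adjusted p = 0.0147), and its call ended without control 1 and without control 2, with adjusted p up to 0.0563. Aurkb, Plk1 and Cdc25b kept their calls whichever of the 9 arrays was dropped.

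The other 5 kinase genes did not pass. Bub1b, a spindle checkpoint component picked after its values were seen, came nearest (-0.31, SE 0.10, limma adjusted p = 0.0901), and its Sfpq-/- arrays (10.28, 10.54 and 10.09) lay below the controls (10.60, 10.67 and 10.56). Cdk1, the kinase at the centre of mitotic entry, differed by -0.24 (limma adjusted p = 0.17). The centrosome kinase gene Nek2 differed by -0.22, and the checkpoint kinase genes Bub1 and Ttk by -0.17 and -0.13. For Bub1 and Ttk, also picked after their values were seen, Sfpq-/- 2 was the highest of the 9 arrays (10.79 and 9.29), and Sfpq-/- 3 the lowest (10.09 and 8.59).

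Of the 4 measured cyclin and Cdc25 genes 2 fell, where 6.12% of all genes were called lower. Cdc25b, whose phosphatase starts Cdk1 activation, was 9.73, 9.68 and 9.67 on the control arrays, 9.59, 9.48 and 9.66 on the Sfpq+/- arrays and 9.35, 9.39 and 9.18 on the Sfpq-/- arrays (1.30-fold lower, log2 change -0.38, SE 0.08, limma adjusted p = 0.0099). Each Sfpq-/- array lay below each Sfpq+/- array, and each Sfpq+/- array below each control. Ccnb2, a mitotic cyclin that partners Cdk1, was 11.16, 11.21 and 11.20 in controls, 11.12, 11.15 and 11.07 in Sfpq+/- and 10.87, 10.98 and 10.76 in Sfpq-/- cortex, also without overlap between any of the groups (-0.32, SE 0.07, limma adjusted p = 0.0173). Its call ended without control 2, without control 3, without Sfpq-/- 1 and in a fit of the 2 groups alone. Cdc25c, a second phosphatase of Cdk1, differed by -0.35 with a larger error (SE 0.14, limma adjusted p = 0.144), and the S phase and G2 cyclin gene Ccna2 by -0.17 (limma adjusted p = 0.274).

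Among 5 kinesin genes, whose motor proteins act on spindle microtubules, Kif20a fell and the median change was -0.30. The share of all genes called lower was 6.12%. Kif20a, which works in the central spindle during cytokinesis, was 10.49, 10.58 and 10.60 in controls, 10.48, 10.43 and 10.48 in Sfpq+/- and 10.21, 10.41 and 9.93 in Sfpq-/- cortex (-0.37, SE 0.11, limma adjusted p = 0.0494). Its arrays did not overlap, but it passed narrowly: dropping single arrays removed its call in 8 of 9 cases, all but the drop of Sfpq-/- 2, with adjusted p up to 0.147 over all alternatives. The call was also lost with no filter, with the median of probe sets, in a fit of the 2 groups alone and with the Xist term. Kif4 (-0.32), a motor that binds chromosome arms, the microtubule-depolymerising Kif2c (-0.30), the bipolar spindle motor Kif11 (-0.29) and the central spindle motor Kif23 (-0.21) did not pass, with limma adjusted p from 0.104 for Kif2c to 0.371 for Kif23. On Sfpq-/- 2, Kif4 and Kif23 lay above all 3 controls.

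**Figure D2:**
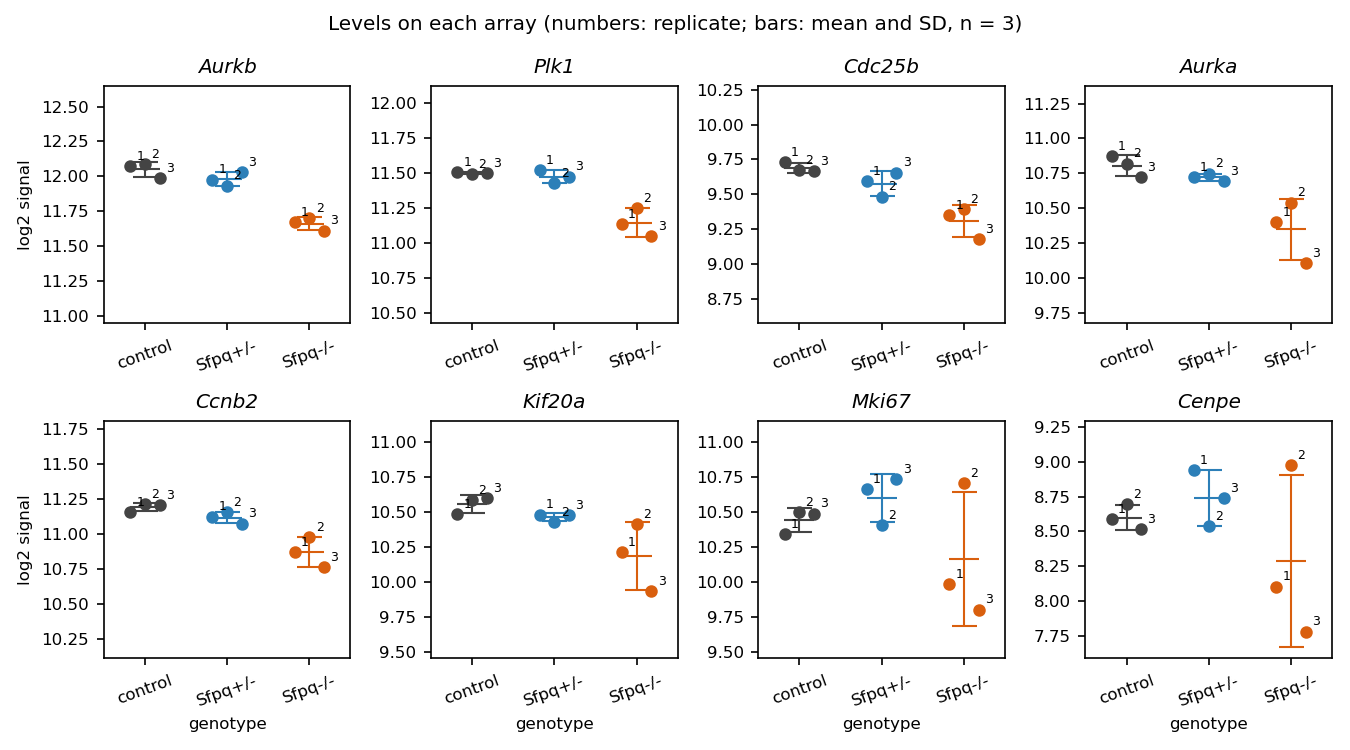
Log2 signal on each array for the 6 called genes and for Mki67 and Cenpe, which were picked after their values were seen as the pair with the widest spread over Sfpq-/- arrays; points are arrays numbered by replicate and bars are mean and SD (n = 3). The Sfpq-/- arrays lie below all controls in the first 6 panels, while in the last 2 panels Sfpq-/- 2 lies above the controls.

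The promoters of the called genes are shown because most genes of mitosis are known to share 2 short elements near their start: the CCAAT box, bound by the factor NF-Y, and the cell cycle genes homology region (CHR), bound by the MuvB complex, which represses these genes in resting cells and activates them in G2. RefSeq windows of 300 bases (250 before the start and 50 from it, build GRCm38.p6) were available for 35 of the 41 genes, among them 4 of the 6 called genes. Each stretch below runs from 120 bases before the start through the first 50 bases of the gene, with the CCAAT box and the CHR forms TTTGAA or else TTTAAA, on either strand, in capitals.
Plk1 (chr7:122159315-122159484, plus strand): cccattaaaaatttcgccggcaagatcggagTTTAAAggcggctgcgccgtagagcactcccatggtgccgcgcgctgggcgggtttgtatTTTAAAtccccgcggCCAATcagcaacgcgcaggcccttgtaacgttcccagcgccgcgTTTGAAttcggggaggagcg
Aurka (chr2:172370521-172370690, minus strand): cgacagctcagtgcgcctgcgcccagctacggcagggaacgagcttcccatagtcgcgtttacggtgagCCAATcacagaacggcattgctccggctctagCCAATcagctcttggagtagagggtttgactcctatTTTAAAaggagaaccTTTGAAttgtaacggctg
Ccnb2 (chr9:70421505-70421674, minus strand): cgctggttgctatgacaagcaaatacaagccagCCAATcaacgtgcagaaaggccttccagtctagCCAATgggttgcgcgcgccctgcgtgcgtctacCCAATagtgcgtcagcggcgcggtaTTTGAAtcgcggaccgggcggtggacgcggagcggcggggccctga
Cdc25b (chr2:131186828-131186997, plus strand): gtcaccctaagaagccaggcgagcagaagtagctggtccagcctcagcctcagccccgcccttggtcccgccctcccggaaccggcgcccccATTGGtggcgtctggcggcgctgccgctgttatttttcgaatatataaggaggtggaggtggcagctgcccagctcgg

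In Ccnb2, CCAAT boxes start at -87, -54 and -21 from the start site, counted with the first transcribed base as 1, and TTTGAA follows at 5 to 10. Aurka holds CCAAT at -51 and -19 and TTTGAA at 33 to 38, and Plk1 holds CCAAT at -14 and TTTGAA at 31 to 36. Cdc25b holds 1 CCAAT box on the opposite strand (read as ATTGG) at -28 to -24 and neither CHR form in its window. The start sites used for Aurka and Cdc25b lie inside the outermost ends of these genes. Of the 35 genes with a window, 28 (80%) held CCAAT and 29 (82.9%) held a CHR form, against 41.1% and 30.6% of 27025 genes in the table. Both were present in 25 of the 35 (71.4%), and in 12.2% of all genes. The E2F core (TTCGCGC or its forms with letters TTGGCGC or else TTCCCGC, on either strand) was in 5 of the 35 (14.3%) and in 9.2% of all genes. These matches are descriptions of the letters in these windows.

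No gene passed in the remaining 6 role groups, so the gene with the smallest p is given for each. Of the 4 genes of the APC/C pathway, Cdca3, which encodes a trigger of mitotic entry, was 10.16, 10.20 and 10.05 in controls, 10.22, 10.04 and 10.13 in Sfpq+/- and 9.80, 10.05 and 9.66 in Sfpq-/- cortex (-0.30, SE 0.10, limma adjusted p = 0.0935). The Sfpq-/- 2 value lay within the range of the controls. Cdc20, the activator that the checkpoint restrains, differed by -0.26, the checkpoint inhibitor gene Mad2l1 by -0.21 and the ubiquitin-conjugating enzyme gene Ube2c by -0.18. In the chromosomal passenger complex, Birc5, which encodes survivin, was 8.91, 8.93 and 8.55 in controls, 8.88, 8.85 and 8.81 in Sfpq+/- and 8.57, 8.78 and 8.33 in Sfpq-/- cortex (-0.24, SE 0.13, limma adjusted p = 0.294). Control 3 lay in the range of the Sfpq-/- arrays for this gene. Cdca8 (-0.20) and Incenp (-0.20), its partners in the complex that carries Aurora B, did not pass.

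At the centromere and kinetochore, where chromosomes bind the spindle, Ndc80, a microtubule-binding subunit, was 8.98, 8.97 and 8.88 in controls, 8.88, 9.03 and 8.99 in Sfpq+/- and 8.72, 9.04 and 8.35 in Sfpq-/- cortex (-0.24, SE 0.14, limma adjusted p = 0.337). Cenpe, a kinetochore motor, had the widest spread of the 40 genes over the Sfpq-/- arrays, with 8.11, 8.97 and 7.78 against 8.59, 8.69 and 8.52 in controls (-0.31, SE 0.24, limma adjusted p = 0.489). Its highest and lowest values over all 9 arrays were both from Sfpq-/- embryos. Cenpf differed by -0.20 and Cenpa, the centromeric histone gene, by -0.10.

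Among 6 spindle and centrosome genes, Tacc3, a spindle-stabilising protein gene, was 9.37, 9.43 and 9.23 in controls, 9.24, 9.33 and 9.21 in Sfpq+/- and 9.21, 9.24 and 8.90 in Sfpq-/- cortex (-0.23, SE 0.10, limma adjusted p = 0.203). Aspm, a spindle pole protein gene whose loss causes microcephaly, differed by -0.32, Tpx2, the activator of Aurora A, by -0.25, Nusap1 by -0.23, Hmmr by -0.18 and Ckap2 by -0.07, the smallest difference of the 40. Without Sfpq-/- 3 the differences of Ttk (0.06), Bub1 (0.02), Cenpa (0.04), Hmmr (0.04) and Ckap2 (0.09) lay above 0, and those of the other 35 genes stayed below it.

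Among 4 cytokinesis genes, Prc1, which bundles the microtubules of the central spindle, was 10.07, 9.96 and 9.89 in controls, 10.148, 10.002 and 9.978 in Sfpq+/- and 9.70, 9.97 and 9.35 in Sfpq-/- cortex (-0.30, SE 0.13, limma adjusted p = 0.197). Anln (-0.31), the gene of a contractile ring scaffold, Ect2 (-0.23), which activates the GTPase that drives the ring, and its partner Racgap1 (-0.10) did not pass. Of the 2 chromosome structure genes, Top2a, the topoisomerase that disentangles sister chromosomes, was 11.22, 11.23 and 11.05 in controls, 11.16, 11.07 and 11.21 in Sfpq+/- and 10.80, 11.12 and 10.54 in Sfpq-/- cortex (-0.34, SE 0.13, limma adjusted p = 0.119). Mki67, the gene of the proliferation marker Ki-67, was 10.35, 10.50 and 10.49 in controls, 10.67, 10.41 and 10.74 in Sfpq+/- and 9.98, 10.71 and 9.80 in Sfpq-/- cortex (-0.28, SE 0.19, limma adjusted p = 0.432). For Mki67 the Sfpq-/- 2 array was higher than all controls, and the other 2 lower.

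**Figure D3:**
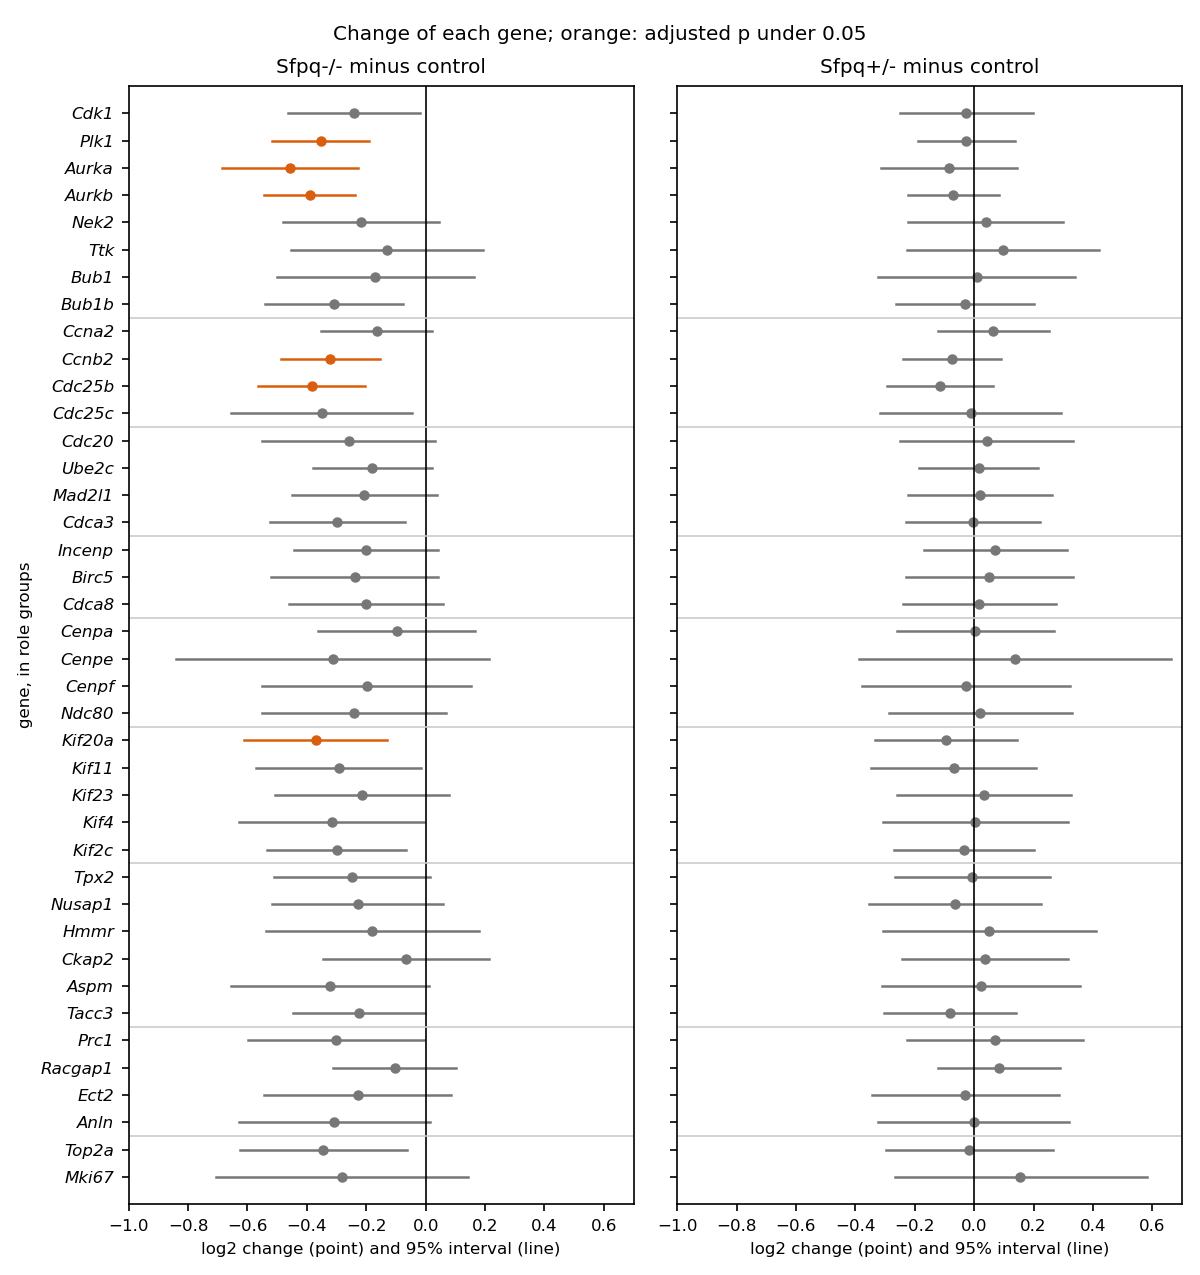
Log2 change of each of the 40 genes with its 95% interval in Sfpq-/- (left) and Sfpq+/- (right) against the shared controls, by limma over all 9 arrays; orange marks an adjusted p under 0.05. All 40 points on the left lie below 0 and 6 are orange, while on the right 19 lie below 0, 21 above it and none is orange.

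Probe sets within a gene mostly lay on one side. Of the 883 probe sets of these genes, 816 (92.4%) had a lower mean in Sfpq-/- than in control cortex, with a median change of -0.28, where 49.3% of all 628415 probe sets were lower. For 9 genes every probe set was lower, among them the 13 of Aurka, the 14 of Aurkb, the 12 of Ccnb2, the 25 of Kif20a, the 30 of Kif11 and the 27 of Mki67. Cenpa (6 of 10 lower) and Ckap2 (7 of 11) were the most divided. Probe sets of a gene share their RNA and array, so these counts are not replicates. Tested one by one, 1 of the 883, in Top2a, was called lower and none higher, where 1.19% and 0.561% of all probe sets were. In simulated data for this comparison the test of 628415 probe sets found 0% of changes of 0.5 and 3% of changes of 1.

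On the arrays labelled Sfpq+/-, whose Sfpq signal was not below that of controls, these genes lay on both sides of the controls. The median change was 0.00, and the smallest unadjusted p was 0.189, so none of the 40 reached an unadjusted p under 0.05, where 2.02% of all genes were lower and 2.22% higher by that rule. By limma's adjusted p 0% of all genes were called in either direction. Changes ran from -0.11 for Cdc25b to 0.16 for Mki67, and the 95% intervals together covered -0.39 to 0.66, so for some genes a change as large as in Sfpq-/- cortex lay within the interval. The arrays did not overlap for Ccnb2, Cdc25b and Kif20a, which were lower in Sfpq+/- (3.99% of all genes were lower without overlap), and for Ccna2, which was higher (8.52% were). For Aurkb the change was -0.07 (95% interval -0.22 to 0.08) and for Plk1 -0.03 (95% interval -0.19 to 0.14).

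Compared directly with the arrays labelled Sfpq+/-, Sfpq-/- cortex had a lower mean for all 40 genes, with a median of -0.26, where 43.5% of all genes had a change below 0. Aurkb (-0.32, limma adjusted p = 0.0107), Plk1 (-0.33, limma adjusted p = 0.0132) and Aurka (-0.37, limma adjusted p = 0.0397) fell and none rose, where 7.25% of all genes were lower and 4.58% higher by this rule. The count of 3 of 40 is near that share of all genes called lower. Cdc25b (-0.27, limma adjusted p = 0.0575), Ccnb2 (-0.25, limma adjusted p = 0.0601) and Kif20a (-0.28, limma adjusted p = 0.152) did not pass. Arrays did not overlap for 14 of the 40 genes, where 13.6% of all genes were lower without overlap. Both comparisons use the same 3 Sfpq-/- arrays, so they are not independent, and here too the count rested on Sfpq-/- 2, being 23 without it. It was 1 without Sfpq+/- 1, without Sfpq+/- 3 and without Sfpq-/- 1. Shares of all genes called without these arrays are not given. Those counts thus do not separate a change in these genes from a change in calls at large.

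Other genes of the cell cycle were counted from lists of names, where 6.12% of all genes were called lower and 5.98% higher. The counts of 1 gene in this paragraph are near these shares. Of 29 further spindle, centrosome and cytokinesis genes 6 fell and none rose in Sfpq-/- cortex (median -0.23). With the smallest p were the microcephaly gene Mcph1 (-0.45, limma adjusted p = 0.00361), Fam83d (-0.38), the kinesin Kif22 (-0.38) and the citron kinase gene Cit (-0.44). Of 27 further kinetochore and checkpoint genes 6 fell and none rose (median -0.18), led by Mad1l1 (-0.55, limma adjusted p = 0.00105), Cenpp (-1.07), Zwint (-0.33) and Nuf2 (-0.41). Of 14 other kinases, phosphatases and inhibitors of G2 and mitosis 1 fell, the mitotic kinase gene Pbk (-0.93, SE 0.12, limma adjusted p = 0.000451), from 11.03, 10.96 and 10.76 in controls to 9.88, 10.27 and 9.81. All 3 Sfpq-/- arrays were below the others for Pbk. Of 20 transcription regulators of the cycle, E2f3 (-0.41, limma adjusted p = 0.0255) and Foxm1 (-0.33, limma adjusted p = 0.0355), the latter an activator of G2 genes, fell, and the MuvB subunit gene Lin37 (0.42, limma adjusted p = 0.0427) rose. The median of these 20 was -0.19.

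Few genes passed in the lists for other steps, and the 1 called for S phase is near the 6.12% of all genes called lower. None of 16 genes of APC/C subunits and chromosome separation passed (median 0.07), and none of 13 cohesin and condensin genes did (median -0.09). Of 19 S phase genes, the replication factor gene Gins1 (-0.47, limma adjusted p = 0.0257) fell, and the median was -0.13. Averaged over each list, Sfpq-/- 1, 2 and 3 differed from the control mean by -0.12, -0.02 and -0.48 for the further kinetochore genes, by -0.22, -0.03 and -0.49 for the further spindle genes and by -0.10, 0.01 and -0.30 for S phase. Sfpq-/- 3 was thus the lowest Sfpq-/- array in these lists too.

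Markers of the cell types in the tissue were measured beside these, as the average over each list minus the control mean. By the same test 6.12% of all genes were called lower and 5.98% higher in Sfpq-/- against control. For 10 radial glia markers it lay between -0.07 and 0.04 on control, 0.02 and 0.10 on Sfpq+/- and -0.10 and 0.11 on Sfpq-/- arrays, and 1 of the 10, Lhx2 (-0.34, limma adjusted p = 0.007), fell. For 5 intermediate progenitor markers it lay between -0.03 and 0.02 on control, -0.02 and 0.14 on Sfpq+/- and -0.45 and -0.28 on Sfpq-/- arrays, and 3 fell: Neurog2 (-0.92), Insm1 (-0.37) and Eomes (-0.23). On Sfpq-/- 2 this average was -0.28, while that of the mitosis and G2 genes was -0.01. For 7 neuronal markers it lay between -0.04 and 0.04 on control, 0.05 and 0.23 on Sfpq+/- and -0.06 and 0.01 on Sfpq-/- arrays, and 1, Neurod6 (-0.41), fell. For 8 microglia markers it lay between -0.03 and 0.02 on control, -0.04 and 0.10 on Sfpq+/- and 0.28 and 0.33 on Sfpq-/- arrays, and 7 rose, Cd68 (0.51) and Tyrobp (0.36) among them. None of 4 endothelial, 5 meningeal and 4 erythroid markers passed. On Sfpq-/- 1, 2 and 3 the endothelial average was 0.00, 0.27 and 0.02, the meningeal one -0.01, 0.27 and 0.10, and the erythroid one -0.07, 0.01 and -0.36. On control arrays these averages lay between -0.08 and 0.06, -0.17 and 0.14, and -0.06 and 0.10. On Sfpq+/- arrays they lay between 0.00 and 0.025, -0.11 and 0.23, and -0.35 and 0.15. Sfpq+/- 3 had the 0.23 for meningeal and the -0.35 for erythroid markers, so deviations near this size in these lists were not limited to Sfpq-/- arrays. The endothelial average of 0.27 was seen on Sfpq-/- 2 alone, and the next highest array, control 2, had 0.06. No marker measured was listed at 0, and the part of these cell types in the change of the mitosis and G2 genes was not tested.

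**Figure D4:**
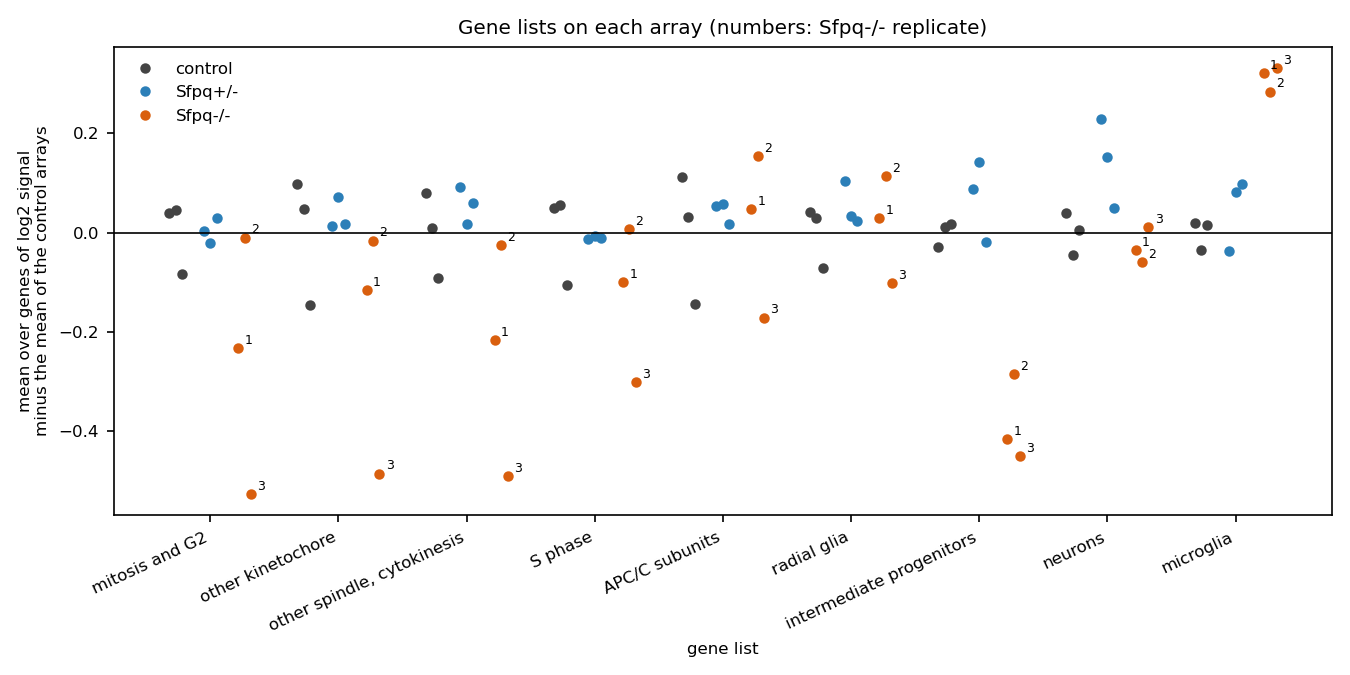
Mean over the genes of each list of the log2 signal minus the control mean, 1 point per array, for the 40 mitosis and G2 genes and 8 other lists; numbers mark the Sfpq-/- replicate. Sfpq-/- 3 is the lowest array in the 5 cell cycle lists at the left, while all 3 Sfpq-/- arrays lie outside the range of the others for intermediate progenitors (-0.45 to -0.28) and microglia (0.28 to 0.33).

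Among the longest genes of the genome, a class of 918 that holds none of the mitosis and G2 genes, 42.6% were called lower in Sfpq-/- cortex. The mitosis and G2 genes spanned 2.97 to 101 kb with a median of 22.4 kb. This was close to the median of 22.1 kb over all genes with a known span (RefSeq, GRCm38.p6). In the classes under 10 kb, 10 to 30 kb and 30 to 100 kb the medians of the mitosis and G2 genes were -0.24, -0.28 and -0.24, with 9, 15 and 15 genes, and the medians of all genes were 0.03, 0.04 and 0.04. Only Kif4 spanned over 100 kb. In the 3 classes under 100 kb 1.83%, 2.25% and 4.55% of all genes were called lower, and 2, 4 and 0 of the mitosis and G2 genes were. Spans of the genes in the other cell cycle and marker lists were not examined, so the part of span in their calls was not tested.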

How the data were processed

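Each value the authors deposited is taken as the log2 signal of 1 probe set on 1 of 9 arrays, a unit read from the range of the values (0 to 14.98). Per the submitters' processing notes the tool was Affymetrix Expression Console 1.2.0.20, while the series' design text names the Exon Array Computational Tool. The sources used here do not give the background correction, the authors' normalization or the genome build, and no further normalization was applied. Of 1256831 probe sets, 318760 have 1 symbol in the platform table, and older symbols were updated through RefSeq synonyms (Cdk1 is listed there as Cdc2a). Probe sets were kept if their 9-array mean exceeded 5.64, the median of such means, and a gene's level was the mean of at least 3 kept probe sets. Limma 3.58.1 in R 4.3.3 fitted the 3 group means per gene over all arrays, without covariates, and p-values were adjusted by Benjamini and Hochberg's method, with calls under 0.05. The fit was tested on simulated data, where it made 6 false calls among 16854 genes for Sfpq-/- against control. The genes and lists were chosen with earlier results of these data known. Every gene of the 41 is accounted for: values on each array are given for genes called in any comparison and, in each role group without one, for the gene with the smallest p. Of each other list, up to 4 genes with the smallest adjusted p are named. Alternatives varied the filter, the summary, the normalization, the arrays and the model.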

Additional observations from a re-analysis of the deposited data

How the results depend on the processing

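In Sfpq-/- against control, the number of the 40 genes called lower stayed within 1.5 times of 6 under the filters, the median of probe sets, quantile normalization, the fit of 2 groups alone, the trended robust fit and the term for Xist. With array weights, estimated gene by gene because the default estimate did not converge, it was 24. These weights were 0.443 for Sfpq-/- 2 and 0.365 for Sfpq-/- 3 and 2.99 for Sfpq-/- 1. Leaving out 1 array gave 3 to 22. The median change kept its sign under every alternative, from -0.382 to -0.105 without 1 array. In Sfpq-/- against Sfpq+/-, where 3 were called, the count was 5 with probe sets above the upper quartile (7.33), 1 with the median of probe sets, 5 with quantile normalization, 18 with array weights, 6 with the trended robust fit and 1 to 23 without 1 array. The 1 probe set called became 29 above the upper quartile, 14 with array weights and 0 to 4 without 1 array. Shares of all genes and of all probe sets called under each alternative are not given in this section. The counts here thus do not separate a change in these genes from a change in calls at large. The causes were not tested.

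Replicate numbers are shared by the groups. The arrays numbered 3 deviated together from their group means (correlations across genes of 0.307, 0.574 and 0.303), those numbered 2 hardly did (0.05, 0.006 and 0.04), and Sfpq+/- 1 and Sfpq-/- 1 did not (-0.055). Control 1 correlated better with Sfpq-/- 2 (0.363) than with Sfpq-/- 1 (0.276). The labels name no shared litter or batch and not every pair exceeded 0.1, so the numbers were not taken to pair the samples. With the replicate block, 6 genes were called in Sfpq-/- against control, 5 in Sfpq-/- against Sfpq+/- and 2 probe sets. Without Sfpq-/- 3 the sign turned for 5 genes. Over the fits without 1 array, Ttk ranged from -0.289 to 0.058, Bub1 from -0.328 to 0.024, Cenpa from -0.191 to 0.037, Hmmr from -0.357 to 0.043 and Ckap2 from -0.158 to 0.085. Ckap2 also turned with the median of probe sets (0.094) and with the Xist term (0.01). The other 35 genes kept their sign throughout, and 20 of the 34 uncalled genes passed in at least 1 alternative. They passed with array weights, without Sfpq-/- 2 or in both, and Bub1b also with quantile normalization. No other alternative added a gene. The number of arrays limits what could be called.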

Other observations

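Genes that act when cells leave or pause the cycle moved in both directions in Sfpq-/- cortex. Of 14 such genes 5 rose and 3 fell, where 5.98% of all genes were called higher and 6.12% lower. Cdkn2c, which encodes the cyclin-dependent kinase inhibitor p18, was 8.52, 8.52 and 8.29 on the control arrays and 7.44, 7.65 and 7.42 on the Sfpq-/- arrays (-0.94, SE 0.09, limma adjusted p = 6.24e-05). Rprm, the gene of the G2 arrest protein reprimo, was 11.10, 11.19 and 11.24 in controls and 10.64, 10.68 and 10.81 in Sfpq-/- cortex (-0.46, SE 0.08, limma adjusted p = 0.00223). Ccng1 was 10.75, 10.92 and 10.78 in controls and 11.78, 11.55 and 11.64 in Sfpq-/- cortex (0.84, SE 0.09, limma adjusted p = 0.000103). Sesn2 rose by 0.68. For each of these 4 genes all 3 Sfpq-/- arrays lay on the same side of the controls, Sfpq-/- 2 included. Averaged over the 14 genes, Sfpq-/- 1, 2 and 3 differed from the control mean by 0.08, 0.04 and 0.05, where the mitosis and G2 genes differed by -0.23, -0.01 and -0.53.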
